A study of Drosophila melanogaster with 12 samples.

Results

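The data described here are those of 9 *Drosophila melanogaster* genes whose mRNAs or proteins act in the germ plasm or in the localization of maternal mRNAs in the oocyte. They were taken by name, by a rule that uses no measured value, but with earlier results of these data known. The 9 genes were *osk*, *tud*, *vls*, *gcl*, *pgc*, *bcd*, *exu*, *swa* and *stau*. All 9 were among the 17737 genes of the RIP-seq table, and all 9 had counts in every library. In the RNA-seq table of 6555 listed genes, 8 of the 9 were found, and *tud* was not listed.

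RIP-seq, the sequencing of RNA recovered with an immunoprecipitated protein, was performed on 3 Bam-GFP libraries from ovaries of Bam-fTRG-GFP flies and on 3 libraries from Bam-Gal4 ::UASp-GFP flies as the control. In Bam-fTRG-GFP the Bam protein itself carries the GFP tag, whereas in the control the bam-Gal4 driver makes GFP alone, and GFP-trap beads were used for both. RNA-seq was performed on 3 libraries of GFP-positive sorted germ cells from vas-GFP; bam_delta86/bam_delta86 flies (bam-/-), which lack nearly the whole *bam* locus, and 3 from vas-GFP flies, and both of these genotypes carry the Vasa-GFP fusion. Every library was made from pooled, hand-dissected ovaries, and the labels do not give the age of the flies or say that the 3 libraries of a group came from separate cultures, so that the p-values measure only the spread between these libraries.

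Germ plasm is the cytoplasm at the posterior pole of the oocyte that instructs the embryo's germ cells. It is nucleated by Oskar, whose mRNA is carried to that pole while it is kept silent, and it then gathers Vasa, Tudor and further proteins and mRNAs. *bicoid* mRNA is carried to the opposite, anterior pole, where its protein later patterns the head and thorax. Bam, in contrast, is a differentiation factor of the dividing cystoblast and early cysts, which precede the stages at which these mRNAs are localized.

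The gene counts per RIP-seq library lay between 7720890 and 12704088 for Bam-GFP and between 7697440 and 9342593 for GFP alone. Between 9.84% and 19.6% of what the counting program tallied fell on genes in the Bam-GFP libraries and between 9.79% and 12.7% in the GFP-alone libraries. Across genes, log2 CPM of the Bam-GFP libraries correlated by 0.894 to 0.934 among themselves, but Bam-GFP library 2 correlated by 0.944 with GFP-alone library 1, so the groups did not separate as a whole. *bam*, whose protein is the bait, reached 51.5, 50.1 and 46.8 CPM in the Bam-GFP libraries, and its mean was 49.5 ± 2.4 CPM in Bam-GFP against 10.6 ± 6.75 CPM in GFP alone (SD, n = 3 each, log2 fold change 2.47, SE 0.57, adjusted p = 0.00188, edgeR's quasi-likelihood test). These are counts of *bam* RNA and do not measure how much Bam protein was recovered. The germ line was present in both pull-downs, as the summed level of 8 germ line markers ranged from 2564 to 2729 CPM in Bam-GFP and from 2815 to 3459 CPM in GFP alone. The largest term was *orb*, with means of 944 CPM in Bam-GFP and 1280 CPM in GFP alone. *bgcn*, also on the list, was nearly absent, with means of 0.0825 CPM in Bam-GFP and 0 CPM in GFP alone.

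*osk* and *tud* were the members recovered at a higher level with Bam-GFP than with GFP alone, each at somewhat over double the control level. None of the other 7 passed the test: *bcd* averaged more, *pgc* and *vls* averaged less, and *stau*, *gcl*, *exu* and *swa* lay close to the control. At an adjusted p under 0.05, 2 of 9 members were called higher, where 1.72% of the 10971 tested genes were, and 0 of 9 were called lower, where 0.474% were. At an unadjusted p under 0.05, 3 members were higher, beside 5.54% of all tested genes, and 2 were lower, beside 4.03%. No alternative setting called a member lower. RLE scaling and DESeq2 called 2 members higher, 6 other alternatives called 1 and the remaining 2 called 0. All 9 members reached 10 counts in each library, and of the 6335 genes that did, 2.62% were called higher and 0.584% lower in the fit of all tested genes. A fit of those genes alone called 1 member higher. In CPM, 2 members lay above all controls in every Bam-GFP library, beside 6.4% of all tested genes, and 0 lay below, beside 7.24%. The median log2 fold change over the members was 0.11, and 5 of the 9 values were positive, beside a median of −0.05 over all tested genes. CPM are counts scaled to a common library size after TMM normalization, fold changes are Bam-GFP over GFP alone, and adjusted p-values are Benjamini-Hochberg values over all tested genes. No RNA from the lysates before the pull-down was analysed here, so more RNA bound to Bam and more of that RNA in the lysate cannot be told apart, nor can fewer cells of a type and less RNA per cell.

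**Figure D1:**
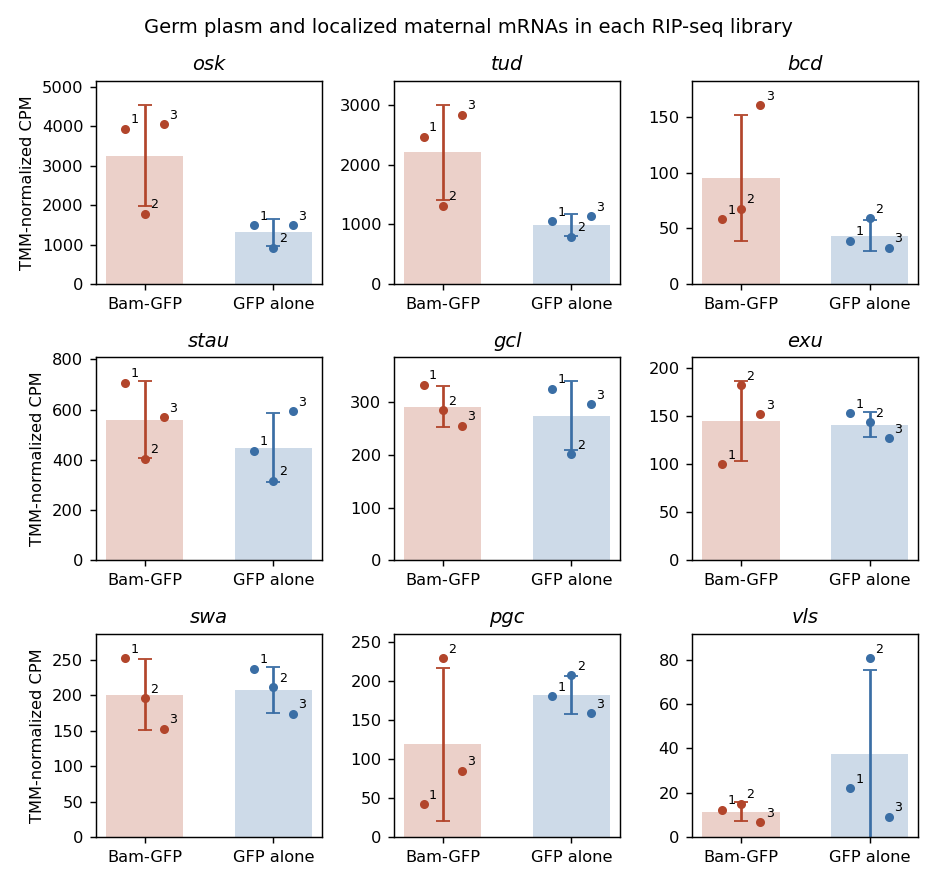
TMM-normalized CPM of the 9 mRNAs in each RIP-seq library, with a panel per gene and its own vertical axis from 0. Points are libraries with their numbers, bars are means and error bars are SDs (n = 3 each, Bam-GFP on the left, GFP alone on the right), and an error bar that would pass below 0 is cut there. The Bam-GFP points lie above every GFP-alone point for *osk* (lowest Bam-GFP value 1781, highest GFP-alone value 1498) and *tud* (1312 and 1130) and overlap them for the other 7 genes.

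*osk* (FBgn0003015; 3R:8935126-8938395, Release 6) encodes Oskar, the protein that is both necessary and, when misplaced, sufficient for germ plasm assembly. It was at 3936, 1781 and 4058 CPM in Bam-GFP libraries 1, 2 and 3, against 1497, 924 and 1498 CPM in GFP-alone libraries 1, 2 and 3. The groups did not overlap, but Bam-GFP library 2 stood well below the other Bam-GFP libraries and only 1.19-fold above the highest control. *osk* averaged 3258 ± 1281 CPM in Bam-GFP and 1306 ± 331 CPM in GFP alone (SD, n = 3 each), a log2 fold change of 1.26 with an SE of 0.32 (adjusted p = 0.00689, edgeR's quasi-likelihood test). As a share of all gene counts, *osk* took 0.318%, 0.186% and 0.38% of the Bam-GFP libraries and 0.169%, 0.102% and 0.151% of the GFP-alone libraries.

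The depth behind these values was large, with 14391 to 48294 *osk* counts in Bam-GFP and 7880 to 15803 in GFP alone, so that counting error was small beside the spread between libraries. The call held in 8 of 10 alternative settings, over which its log2 fold change lay between 1.03 and 1.42 and its adjusted p between 0.000533 and 0.304 (edgeR's quasi-likelihood test or DESeq2). It was lost without the libraries numbered 2 (1.42, adjusted p = 0.304) and without those numbered 3 (1.17, adjusted p = 0.0796), where 2 libraries a group remain. Counting by strand was not stated for the RIP-seq libraries, and 86.9% of the *osk* span is shared with other annotated genes, lncRNA:osk and asRNA:CR44020. Reads from the shared part could therefore belong to those genes or have been set aside, and the counts cannot be ascribed with certainty to *osk* mRNA alone.

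*tud* (FBgn0003891; 2R:21183322-21192913) encodes Tudor, a scaffold of polar granules that binds methylated arginines of Piwi-family proteins. It was at 2464, 1312 and 2833 CPM in the Bam-GFP libraries, against 1052, 788 and 1130 CPM in the GFP-alone libraries. Again the groups did not overlap, and library 2 was the lowest of its group in both. *tud* averaged 2203 ± 793 CPM in Bam-GFP and 990 ± 180 CPM in GFP alone, a log2 fold change of 1.10 with an SE of 0.32 (adjusted p = 0.0322, edgeR's quasi-likelihood test). No other annotated gene overlaps its span.

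The *tud* call was the less firm of the 2. It was kept in 2 of 10 alternatives, RLE scaling and DESeq2, with adjusted p-values between 0.00474 and 0.423 across the 10, while the log2 fold change stayed between 0.87 and 1.28 (edgeR's quasi-likelihood test or DESeq2). Among the alternatives that lost it were no replicate block (1.15, adjusted p = 0.088) and the tested genes limited to those that reached 10 counts in each library (adjusted p = 0.0688). The block of the main fit rests on library numbers, and only the libraries numbered 2 deviated alike in both groups. Without the block, *osk* was the only member called (1.32, adjusted p = 0.0435, edgeR's quasi-likelihood test). Leaving out the libraries numbered 1, 2 or 3 also ended the call, with log2 fold changes of 1.03, 1.28 and 0.98 and adjusted p-values of 0.15, 0.423 and 0.201.

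Ratios of counts within a library, which no scaling can change, separated the groups when *gcl* was the denominator, but not with *pgc* or *bcd*, whose ratios are given with those genes. The *osk* to *gcl* ratio was 11.9, 6.27 and 15.9 in Bam-GFP, against 4.6, 4.6 and 5.08 in GFP alone. The *tud* to *gcl* ratio was 7.43, 4.62 and 11.1 in Bam-GFP, against 3.24, 3.92 and 3.83 in GFP alone. *osk* and *tud* thus stood higher relative to *gcl*, another germ plasm gene, in every Bam-GFP library. They moved closely together, as the *osk* to *tud* ratio was 1.6, 1.36 and 1.43 in Bam-GFP and 1.42, 1.17 and 1.33 in GFP alone, with overlapping groups.

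Likeness of pattern was measured as the root mean square difference of log2 CPM over the 6 libraries, each gene centred on its own mean, among 6334 other genes that reached 10 counts in each library. The genes nearest to *osk* were *mud*, which encodes a spindle and centrosome protein, at 0.102, *mask*, an ankyrin-repeat protein, at 0.106, and *Mical*, an actin-oxidizing enzyme, at 0.13. All 3 were called higher too, with log2 fold changes of 1.2, 1.09 and 1.11 (adjusted p = 0.0123, 0.034 and 0.0287, edgeR's quasi-likelihood test). *tud* followed in the fourth place at 0.134. *stau* came at rank 585, *bcd* at 1401 and *gcl* at 1540, whereas *pgc*, at 6018, and *vls*, at 6235, were among the least alike. The ranks describe 6 libraries that share their scaling, and they carry no test.

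*vls* (FBgn0003978; 2L:20064261-20065679) encodes Valois, a partner of the arginine methyltransferase Capsuleen that Tudor and polar granule assembly depend on. It was at 12.3, 15 and 6.64 CPM in Bam-GFP, against 22, 80.9 and 9.10 CPM in GFP alone. The high GFP-alone mean came from library 2, and the groups overlapped. The log2 fold change of −1.24 (SE 0.60) had an unadjusted p under 0.05 but did not pass the adjusted test (adjusted p = 0.459, edgeR's quasi-likelihood test), and it was −0.65 without the libraries numbered 2. *vls* rested on 79 to 121 counts in Bam-GFP and on 85 to 690 in GFP alone, the fewest of the 9.

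The germ plasm mRNAs *gcl* and *pgc* are both translated in the embryo's pole cells or at their formation. *gcl* (FBgn0005695; 2R:8724258-8728999) encodes a ubiquitin ligase adaptor that pole cell formation requires. It was at 332, 284 and 255 CPM in Bam-GFP, against 325, 201 and 295 CPM in GFP alone, and the groups lay over each other. Its log2 fold change was 0.11 with an SE of 0.31 (adjusted p = 0.938, edgeR's quasi-likelihood test), and relative to the median of the 6335 genes that reached 10 counts in each library it was 0.15, or 0.14 when scaled by library size only.

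*pgc* (FBgn0016053; 2R:22330200-22332813) encodes a short peptide that holds back transcription in pole cells. It was at 41.7, 230 and 85.3 CPM in Bam-GFP, against 181, 208 and 159 CPM in GFP alone. Bam-GFP libraries 1 and 3 were below every control and library 2 was above every control, so the spread within Bam-GFP was larger than the difference between the means of 119 ± 98.6 CPM in Bam-GFP and 182 ± 24.3 CPM in GFP alone. The log2 fold change of −0.95 (SE 0.35) also had an unadjusted p under 0.05 but did not pass (adjusted p = 0.158, edgeR's quasi-likelihood test). It was −0.37 without the libraries numbered 1 and −1.5 without those numbered 2. Of the *pgc* span, 71.7% lies within the span of *T3dh*, so that part of its reads could belong to that gene or have been set aside.

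Library 2 was therefore the Bam-GFP library with the least *osk* and *tud* and the most *pgc*. The *osk* to *pgc* ratio showed this as 94.4, 7.74 and 47.6 in Bam-GFP, against 8.29, 4.45 and 9.42 in GFP alone, so that Bam-GFP library 2 fell among the controls.

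*bcd* (FBgn0000166; 3R:6755842-6759466) encodes Bicoid, the anterior morphogen. It was at 58.3, 67.9 and 161 CPM in Bam-GFP, against 39.0, 59.2 and 32.5 CPM in GFP alone. Bam-GFP library 3 was the highest by far, and Bam-GFP library 1 lay just below GFP-alone library 2. *bcd* averaged 95.8 ± 56.8 CPM in Bam-GFP and 43.6 ± 13.9 CPM in GFP alone, a log2 fold change of 1.01 with an SE of 0.42 that had an unadjusted p under 0.05 but did not pass (adjusted p = 0.279, edgeR's quasi-likelihood test). It was 0.39 without the libraries numbered 3, and no alternative called it.

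*bcd* did not follow *osk* from library to library. The *osk* to *bcd* ratio was 67.6, 26.2 and 25.2 in Bam-GFP and 38.4, 15.6 and 46.0 in GFP alone. The genes nearest to *bcd* in pattern were *CG17786* (root mean square difference 0.171), *f*, which encodes an actin bundling protein (0.223), and *CG12075* (0.228), and none of the 3 was called. *tud* stood at rank 486 from *bcd* and *osk* at rank 1137 of 6334.

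The 3 members of the localization machinery did not differ detectably between the pull-downs. *exu* (FBgn0000615; 2R:20667427-20671083), which encodes a protein needed for the anterior placement of *bcd* mRNA, was at 99.9, 182 and 152 CPM in Bam-GFP, against 153, 144 and 127 CPM in GFP alone. *swa* (FBgn0003655; X:6363418-6365708), which encodes a protein that keeps *bcd* mRNA at the anterior in later oocytes, was at 253, 196 and 153 CPM in Bam-GFP, against 238, 212 and 174 CPM in GFP alone. *stau* (FBgn0003520; 2R:18117896-18125779) encodes Staufen, the double-stranded RNA-binding protein that accompanies both *osk* and *bcd* mRNA.

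*stau* was at 708, 405 and 569 CPM in Bam-GFP, against 437, 317 and 593 CPM in GFP alone, with overlapping groups. The log2 fold changes were −0.0044 (SE 0.33) for *exu*, −0.07 (SE 0.32) for *swa* and 0.33 (SE 0.31) for *stau*, with adjusted p-values of 0.997, 0.964 and 0.895 (edgeR's quasi-likelihood test). An estimate of a size like that of *tud* could also miss the threshold, as those of *bcd* and *vls* did. The signs of *exu* and *swa* turned in some alternatives.

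**Figure D2:**
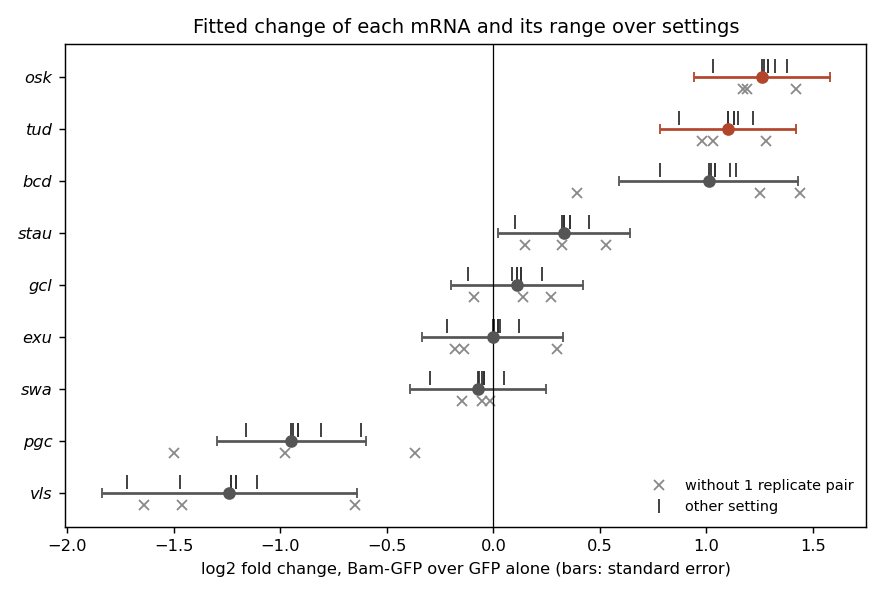
Log2 fold change, Bam-GFP over GFP alone, of each of the 9 mRNAs (horizontal axis), with circles and error bars for the estimate and its standard error and red for an adjusted p under 0.05. Crosses are fits without the libraries of a replicate number and ticks are other settings. *osk* (1.26) and *tud* (1.10) are red and stay right of 0 throughout, whereas *gcl*, *exu* and *swa* have values on both sides of 0.

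A change of scaling factors moves the log2 fold changes of all genes by nearly the same amount, so values relative to their median change little by construction. Over the 6335 genes that reached 10 counts in each library, the median log2 fold change was −0.04 with TMM factors, −0.26 with library size only and 0.08 with totals in which multiply aligned reads were included. Relative to that median, *osk* was at 1.30 under each of these 3 settings, *bcd* at 1.05, 1.04 and 1.03, and *pgc* at −0.91, −0.90 and −0.89. The calls did depend on the scaling. *tud* was not called with library size only (adjusted p = 0.0723) or with the multiply aligned totals (adjusted p = 0.0844, edgeR's quasi-likelihood test).

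The other genes of these pathways were listed by function, but with earlier results of these data known. The median log2 fold change of 16 further germ plasm genes was −0.28. Where 1.72% of all tested genes were called higher and 0.474% lower, 0 of the 16 were called higher and 1 lower. That gene was *krimp*, which encodes a Tudor-domain protein of the nuage around nurse cell nuclei, at 32.3, 70.6 and 44.8 CPM in Bam-GFP, against 119, 142 and 117 CPM in GFP alone. It fell by 1.42 on the log2 scale (SE 0.38, adjusted p = 0.0141, edgeR's quasi-likelihood test), with no overlap of the groups. 3 of the 16 genes were lower at an unadjusted p under 0.05, beside 4.03% of all tested genes, and 0 were higher, beside 5.54%. *vas* itself was level, at 345 ± 75.7 CPM in Bam-GFP and 337 ± 49.7 CPM in GFP alone, and *nos* was at 254 ± 81 CPM in Bam-GFP and 325 ± 74.6 CPM in GFP alone (SD, n = 3 each).

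Of 27 genes for proteins that bind, silence or transport *osk* and *bcd* mRNA, 26 were tested and 0 were called in either direction, by edgeR's quasi-likelihood test. At an unadjusted p under 0.05, 1 was higher and 0 were lower, beside 5.54% and 4.03% of all tested genes. The median log2 fold change of the 26 was 0.02. The most positive was *aret*, which encodes Bruno, the translational repressor of *osk* mRNA, at 0.68 (SE 0.32, adjusted p = 0.417), and the most negative was *mago*, of the exon junction complex, at −0.49 (SE 0.42, adjusted p = 0.895). *cup*, whose protein holds the *osk* repressor complex on the cap, was listed at 0 in all 6 libraries and was not tested.

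The median log2 fold change of 24 further maternal genes of the body axes was −0.13. Where 1.72% of all tested genes were called higher and 0.474% lower, 0 of the 24 were called lower and 1 higher. This was *ndl*, which encodes a follicle cell protease of the dorsoventral pathway, at 875 ± 352 CPM in Bam-GFP and 95.8 ± 22.1 CPM in GFP alone (log2 fold change 3.14, SE 0.34, adjusted p = 1.34e-16, edgeR's quasi-likelihood test). Of the 24 values, 11 were positive. At an unadjusted p under 0.05, 3 genes were higher and 2 lower, beside 5.54% and 4.03% of all tested genes. Of the lower, *tor*, the terminal receptor, was at 109 ± 25.1 CPM in Bam-GFP and 199 ± 24 CPM in GFP alone. *dl*, the dorsal transcription factor, was at 108 ± 16 CPM in Bam-GFP and 186 ± 39.8 CPM in GFP alone. The higher were *ndl*, *pip* and *fs(1)N*, the last at 659 ± 258 CPM in Bam-GFP and 343 ± 24.9 CPM in GFP alone. Apart from *ndl*, none passed the adjusted test (adjusted p = 0.176 for *tor*, 0.339 for *dl*, 0.169 for *fs(1)N* and 0.23 for *pip*, edgeR's quasi-likelihood test), and all were named after their values were seen.

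**Figure D3:**
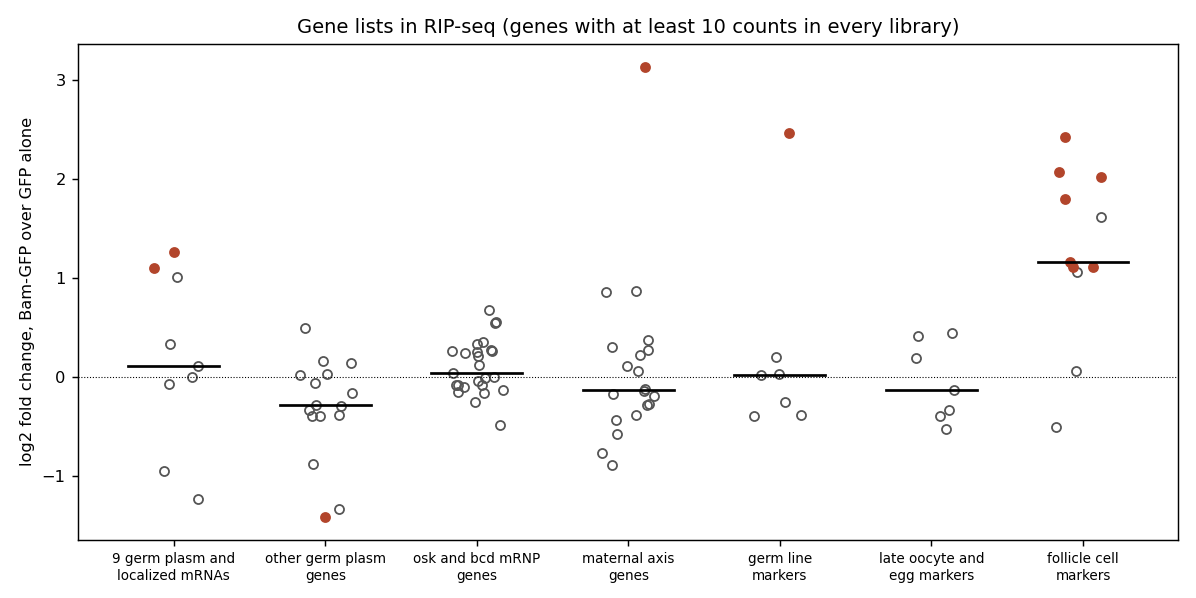
Log2 fold change, Bam-GFP over GFP alone, of the genes of 7 lists, limited to genes that reached 10 counts in each library, a circle per gene, filled red at an adjusted p under 0.05, with a line at each list's median. Horizontal scatter within a list has no meaning. The follicle cell markers lie highest, and *ndl* (3.14) and *bam* (2.47) are the red points above the maternal axis genes and the germ line markers.

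Follicle cell markers moved with the groups. Of 11 follicle cell markers, 7 were called higher and 0 lower, beside 1.72% and 0.474% of all tested genes. The markers had a median log2 fold change of 1.16, and their summed level was 12785, 20517 and 8181 CPM in Bam-GFP, against 3598, 6756 and 4274 CPM in GFP alone. The called genes were the vitelline membrane genes *Vm26Aa* (2.02), *Vm26Ab* (2.07) and *Vm34Ca* (2.43), the yolk protein genes *Yp2* (1.11) and *Yp3* (1.11), the chorion gene *Cp36* (1.80) and the transcription factor gene *tj* (1.16). The follicle cell sum was highest in Bam-GFP library 2, the Bam-GFP library in which *osk* and *tud* were lowest. Its largest terms were *Vm34Ca*, at 4400, 7350 and 1580 CPM in Bam-GFP libraries 1, 2 and 3, and *Cp38*, at 4030, 5900 and 2010 CPM. Not every follicle cell gene had this order. *tj* was at 150, 143 and 236 CPM in these libraries, and *ndl*, from the maternal axis list, at 858, 533 and 1240 CPM, lowest in library 2 like *osk* and *tud*. The part of follicle cells in the *osk* and *tud* result was not tested.

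Markers of the late oocyte, which holds the localized mRNAs, showed no call. Of 7 late oocyte and egg markers 0 were called, and 0 had an unadjusted p under 0.05 (edgeR's quasi-likelihood test), with a median of −0.13 and sums of 4969, 4245 and 3797 CPM in Bam-GFP, against 4868, 5449 and 6017 CPM in GFP alone. The most positive was *gnu*, a subunit of the PNG kinase of egg activation, at 0.44 (SE 0.35, adjusted p = 0.875), and the most negative *dhd*, a maternal thioredoxin, at −0.53 (SE 0.32, adjusted p = 0.69). Of the 8 germ line markers, *bam* alone was called.

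The remaining lists were at low levels. The 8 muscle sheath markers summed to 251, 225 and 170 CPM in Bam-GFP, against 628, 200 and 198 CPM in GFP alone, with 0 called and the extremes at *up* (0.86, adjusted p = 0.895) and *Mlc2* (−1.31, adjusted p = 0.869). Of the 6 hemocyte and fat body markers, 5 were tested, and they summed to 196, 141 and 229 CPM in Bam-GFP, against 633, 341 and 314 CPM in GFP alone, and *apolpp*, a lipid carrier, was called lower (−1.17, SE 0.32, adjusted p = 0.0196, edgeR's quasi-likelihood test). Of the 6 escort and niche markers 5 were tested and 0 called, and they summed to at most 5.2 CPM in a Bam-GFP library and 3.32 CPM in a GFP-alone library.

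Gene length moved with the fold change. Of the 6335 genes that reached 10 counts in each library, those with an annotated position were split by genomic span into shortest, middle and longest groups of 2087, 2086 and 2086 genes. In the longest group, from 4.96 kb up, 5.61% were called higher and the median log2 fold change was 0.14. In the middle group, of 2.07 to 4.96 kb, 0.863% were called higher and the median was −0.10, and in the shortest group 1.25% and −0.18. *tud*, with a span of 9.59 kb, and *stau*, with 7.88 kb, were in the longest group, *osk*, with 3.27 kb, was in the middle group together with *gcl*, *pgc*, *exu*, *swa* and *bcd*, and *vls* was in the shortest. The part of length in the *tud* result was not tested.

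For the sorted germ cells, the RNA-seq table holds the authors' comparison of bam-/- with vas-GFP, which was not used, and the authors' mean normalized count over all libraries of both genotypes. That mean is a read count scaled for depth and not for transcript length, so it does not rank the amounts of mRNA of different genes. It comes without a spread and without a split by genotype. It was 548 for *osk*, 532 for *bcd*, 1619 for *gcl*, 131 for *pgc*, 2735 for *vls*, 1310 for *exu*, 350.0 for *swa* and 7938 for *stau*, beside a median of 1357 over the listed genes.

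The level in the sorted cells can be set beside that in the whole-ovary pull-downs. The table lists only genes that passed the authors' threshold for a difference between the genotypes, so each mean pools genotypes that differ and the percentiles are among such genes. The GFP-alone CPM was divided by the mean normalized count. Gene length cancels in this ratio only where it acts alike in both assays, which was not tested. The ratio had a median of 0.0218 over the 4152 genes listed in both tables that reached 10 counts in each RIP-seq library. It was 2.38 for *osk*, above 99.8% of these genes, 1.39 for *pgc* (99.6%) and 0.596 for *swa* (99.3%). Other annotated genes share 86.9% of the *osk* span and 71.7% of the *pgc* span. The RNA-seq libraries were unstranded, so reads from the shared parts could have been set aside there or belong to those genes. The part of this overlap in the ratios was not tested. *gcl* was at 0.169 (96.7%), *exu* at 0.108 (93.8%), *bcd* at 0.0819 (90.5%) and *stau* at 0.0566 (83.7%), and *vls*, at 0.0136 (32.7%), was the member below the median.

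Over the 8 listed members the median ratio was 0.138. High ratios were not particular to germ line genes, as the median was 0.28 over 6 late oocyte and egg markers, 0.277 over 2 hemocyte and fat body markers, 0.183 over 4 muscle sheath markers and 0.0882 over 11 follicle cell markers. It was 0.0811 over 17 maternal axis genes, 0.0754 over 5 germ line markers, 0.0326 over 14 genes of *osk* and *bcd* mRNA localization and 0.0216 over 13 further germ plasm genes. The comparison sets a pull-down of whole ovaries beside sorted and filtered cells from other genotypes. The stage of the cells, their sorting, the recovery on beads and the counting of reads in shared spans cannot be told apart in it.

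**Figure D4:**
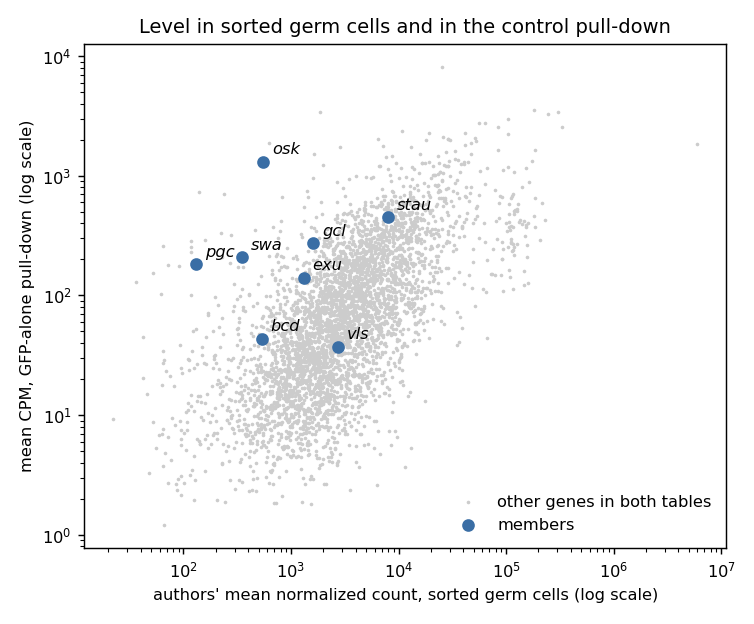
Mean CPM in the 3 GFP-alone pull-downs against the authors' mean normalized count in sorted germ cells, both on log axes, for 4152 genes in both tables (grey) and the 8 listed members (blue). *osk*, *pgc* and *swa* lie at the upper edge of the cloud (2.38, 1.39 and 0.596 CPM per normalized count), and *stau* and *vls* lie within it.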

How the data were processed

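RIP-seq and RNA-seq of *Drosophila* ovaries were each performed in triplicate, and samples were grouped by their labels. The authors aligned the reads with STAR 2.4.0 and counted them per gene with HTSeq 0.11.0. Their deposited RIP-seq table holds raw counts per gene for 6 libraries, with the fold change and p-value of their own test. Their deposited RNA-seq table holds, only for genes that passed their threshold between the genotypes, a mean normalized signal over all libraries (the mean normalized count) with log2 fold changes, standard errors, Wald statistics and p-values of their comparison. The authors' fold changes, statistics and p-values were not used, and the depth of the RNA-seq libraries is unknown. The columns of the RIP-seq table name the group and a number.

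Of 17737 genes, 6766 had no counts and 10971 were tested; 5 summary lines were left out of library sizes. Counts were scaled with TMM (factors 0.8073 to 1.13) and fitted across all tested genes with edgeR's robust quasi-likelihood test (edgeR 4.0.16, R 4.3.3), two-sided, with the replicate number as a block, as the study used a paired test, and Benjamini-Hochberg adjustment. Deviations of same-numbered libraries correlated by −0.15, 0.23 and −0.051 over 6335 genes, so the numbers did not pair the libraries. Standard errors were derived from the F statistic. Log2 CPM for the likeness of patterns used a prior count of 2. The fit was tested on simulated data. Alternatives were RLE factors, library size only, totals with multiply aligned reads, DESeq2 1.42.0, edgeR's filterByExpr, no replicate block, each replicate number left out in turn, and a minimum of 10 counts in each library.

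The members, the lists of pathway and marker genes and the rules were chosen with earlier results of these data known. Every member was named. Of each list, every gene with an adjusted p under 0.05 was named, or else its most positive and most negative gene among those with 10 counts or more in each library, and the 3 genes nearest in pattern to *osk* and *bcd*. *vas*, *aub*, *nos* and *orb* are on both the germ plasm and the germ line list. Names and coordinates are from the RefSeq annotation of Release 6, which gave 17599 of the RIP-seq identifiers a symbol, and spans are genomic. Python 3.11.15, pandas 2.3.3 and matplotlib 3.10.9 were used.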

Additional observations from a re-analysis of the deposited data

How the results depend on the processing

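Over 10 alternatives, no member was called lower, and *bcd*, *pgc*, *vls*, *stau*, *gcl*, *exu* and *swa* were called in none, while *osk*, *tud*, *bcd*, *stau*, *pgc* and *vls* kept their sign in all. The count of members called higher, 2, became 1 with library size only, with totals including multiply aligned reads, with filterByExpr, with a minimum of 10 counts in each library and with no replicate block, and 0 to 1 without a replicate number. The members' median of 0.11 became −0.12 with library size only, where the median of all 6335 well-counted genes also moved, to −0.26 against −0.04, and it ranged from −0.052 to 0.27 without a replicate number. Members whose groups did not overlap, 2 higher and 0 lower, became 0 higher with the multiply aligned totals, and without a replicate number there were 2 to 4 higher and 0 to 1 lower, *pgc* without the libraries numbered 2 and *vls* without those numbered 3. The shares over all tested genes were not computed for these settings. With 2 libraries a group, a lack of overlap also arises more easily, so these counts are not a result about the members. *exu* turned positive with RLE (0.023), DESeq2 (0.023), filterByExpr (0.00047), the multiply aligned totals (0.12) and no replicate block (0.032), and ranged from −0.18 to 0.3 without a replicate number. *gcl* was at −0.12 with library size only, with the same shift of all genes, and ranged from −0.09 to 0.27 without a replicate number, and *swa* was at 0.05 with the multiply aligned totals. The cause of these changes was not tested.

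Over all genes, 189 called higher and 52 called lower became 108 and 87 with library size only, 304 and 104 with DESeq2, 102 and 16 with filterByExpr, 100 and 13 with a minimum of 10 counts in each library, and 137 and 16 with the multiply aligned totals. Without the replicate block they were 227 and 73. Without a replicate number they ranged from 55 to 121 higher and from 18 to 44 lower, and the fit then has 2 libraries a group. Because the fit is blocked, leaving out a library is the same as leaving out both libraries of its number. With 3 libraries a group, estimates about as large as that of *tud* could miss the threshold, as those of *bcd* and *vls* did, and *vls*, with the fewest counts, was the least precise.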
